A study of Rattus norvegicus with 9 samples.

Results

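Mex3c and Trim2 are genes of ubiquitin ligases, and each was measured by 1 Agilent catalogue probe on arrays of whole rat lung. They are 2 of the 29 protein-coding genes that could be named among 38804 probes. They were chosen by probe name and by matching the accession that the scanner files give (NM_001107377 for Mex3c, NM_001108552 for Trim2) to rat RefSeq. Both probes passed the filter on dim probes, so both members were tested, among 37643 probes in all.

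Ubiquitin ligases attach ubiquitin to chosen proteins, which can mark them for the proteasome or change what they do. MEX3C belongs to the MEX3 family, whose members carry KH domains that bind RNA and a RING domain that recruits a ubiquitin-conjugating enzyme, so it acts on both RNA and protein. TRIM2 belongs to the TRIM-NHL family, with a RING domain at one end and NHL repeats at the other. In mouse neurons it ubiquitinates the neurofilament light chain, and in humans its loss causes an axonal neuropathy.

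The study had 3 groups of 3 male Wistar rats, given as 6 to 8 weeks of age and divided at random. Rats of the CS group were exposed to CS, read here as cigarette smoke, and those of the PM2.5 group to PM2.5, the fine fraction of airborne particles. Each exposure ran for 90 days and is labelled as a rat model of COPD (chronic obstructive pulmonary disease). Control rats inhaled NS for 90 days, where NS has no further explanation in the labels. No doses are given, no lung function or histology was used here, and the lungs of exposed replicates 1, 2 and 3 were archived at 90, 91 and 92 days, those of all control rats at 90 days. Total RNA of the whole lung was labelled and run on 1 array per rat. In whole tissue, fewer cells of a type and less RNA per cell cannot be told apart.

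Facts of the arrays touch every comparison with control. Arrays with the same scan time in the file headers are read here as sharing a slide, and no slide name was used. By this reading the control arrays shared 1 slide, scanned on the second day. The 6 exposed arrays lay on 3 other slides from the first scan day. Control status therefore cannot be told apart from slide or scan day. The 75th percentile of the signal was 195 to 219 on CS arrays, 166 to 269 on PM2.5 arrays and 340 to 354 on control arrays. Levels are therefore given as log2 signal minus the 75th percentile of the same array. In this scaling the median change over all tested probes was 0.45 log2 units in CS and 0.51 in PM2.5 against control, and 0.06 and 0.07 after quantile normalization. None of 45 lung cell type marker genes had a named probe, so the labelled tissue could not be checked against markers.

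Each probe was spotted 10 times, which shows how well an array measures it. Mex3c was the dimmer probe. Its mean signal, before any scaling, was 59.9, 54.5 and 56.5 on the CS arrays, 74.4, 51.9 and 92.6 on the PM2.5 arrays and 179, 178 and 176 on the control arrays. The ratio of its raw signal to the background around the spot, as the median of an array, was 5.52 to 6.76 on CS arrays, 6.21 to 8.54 on PM2.5 arrays and 14.6 to 15.9 on control arrays, so it was measured with less margin in the exposed lungs. For Trim2 the mean signal was 813, 598 and 707 on the CS arrays, 534, 410 and 722 on the PM2.5 arrays and 1375, 1333 and 1290 on the control arrays. All 90 spots of Mex3c and all 90 of Trim2 were well above background and 0 were saturated.

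The scanner software marked 3 Mex3c spots and 11 Trim2 spots as outliers, and these were left out of the means. Of the 11, 10 were at the same 2 positions on the array (rows 20 and 71), which lay on average 0.09 and 0.10 log2 units below the median spot of the array. With all spots kept, no call on either gene changed.

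**Figure D1:**
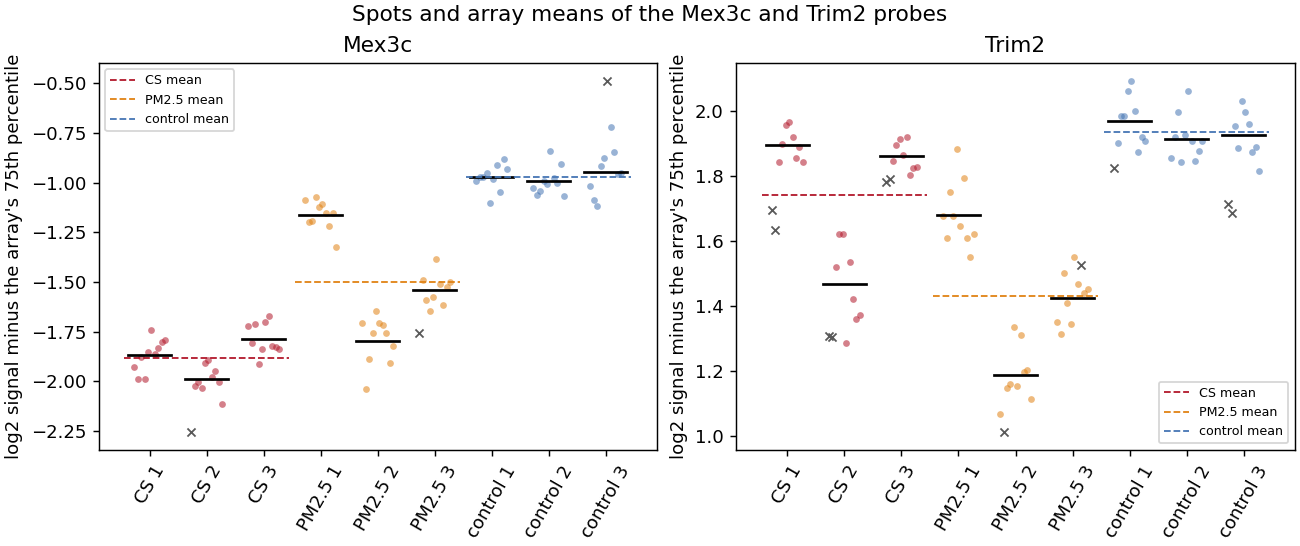
Level of each spot (points, up to 10 per array), crosses for spots marked as outliers, the array mean (black bar) and the group mean (dashed line) for Mex3c and Trim2, in log2 units relative to the 75th percentile of the array. All Mex3c spots of the CS arrays lie below those of the control arrays, and PM2.5 replicate 2 is the lowest PM2.5 array for both genes.

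Mex3c was lower in CS lungs than in control lungs. Its level was −1.87, −1.99 and −1.79 on the CS arrays, against −0.97, −0.99 and −0.94 on the control arrays. The arrays of the groups did not overlap, and all 29 unflagged CS spots lay below all 29 unflagged control spots. Spots, here and below, are repeats within 3 arrays a group and not replicates. The fitted log2 change was −0.91 (SE 0.16, 95% interval −1.27 to −0.55, adjusted p = 0.00369, limma over all tested probes, 3 arrays a group). CS lungs thus had 53.2% of the control level in this scaling, and at each of the 10 spot positions the change lay between −1.03 and −0.82. Over all probes 2.93% had a lower change than Mex3c.

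Trim2 did not pass in CS lungs. Its level was 1.90, 1.47 and 1.86 on the CS arrays, against 1.97, 1.91 and 1.93 on the control arrays. CS replicates 1 and 3 lay just under the lowest control array and CS replicate 2 lay clearly below it, so the groups did not overlap, though by a margin smaller than the spread between CS arrays (SD 0.24). The log2 change was −0.20 (SE 0.16, 95% interval −0.56 to 0.17, adjusted p = 0.318, limma), and 14.2% of probes had a lower change. The interval holds falls of the size seen for Mex3c in PM2.5 lungs as well as no change.

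Against CS, 1 of the 2 genes therefore fell, where 8.42% of all tested probes were called lower and 47.2% were called in either direction. The lower share depended on the scaling, at 12.8% after quantile normalization (4505 probes higher and 4808 lower, against 14586 higher and 3170 lower as reported) and 16.5% after centring on the median. Of the 29 named genes 10 were called lower in CS lungs. Both genes lay below control with no overlap of the arrays, as did 13% of all tested probes.

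In PM2.5 lungs both genes fell, and in the 75th percentile scaling by nearly the same amount. Mex3c had levels of −1.16, −1.80 and −1.54 on the PM2.5 arrays, against −0.97, −0.99 and −0.94 on the control arrays. Its log2 change was −0.53 (SE 0.16, 95% interval −0.89 to −0.17, adjusted p = 0.0214, limma), or 69.3% of the control level. PM2.5 replicate 1 lay close under the control arrays, and 26 of the 29 unflagged PM2.5 spots were below every unflagged control spot. The change at single spot positions was −0.63 to −0.45.

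Trim2 had levels of 1.68, 1.19 and 1.42 on the PM2.5 arrays, against 1.97, 1.91 and 1.93 on the control arrays. Its log2 change was −0.51 (SE 0.16, 95% interval −0.87 to −0.14, adjusted p = 0.0270, limma), or 70.5% of the control level. The groups did not overlap, and 27 of 28 unflagged PM2.5 spots were below every unflagged control spot. For both genes the order of the PM2.5 arrays was the same, with replicate 1 highest and replicate 2 lowest. The named genes nearest to them in pattern (Pld1, Ldha, Pdk3, Nat1, Ndfip1 and Ndfip2) had this order too. They were picked by likeness over these same arrays, so their order is no separate evidence. The median PM2.5 change over the 37643 probes was a rise of 0.51, and 7.53% of probes had a lower change than Mex3c and 7.97% a lower change than Trim2.

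Against PM2.5, 2 of the 2 genes fell, where 9.78% of tested probes were called lower and 56.8% were called in either direction. The lower share was 15.1% after quantile normalization (5542 probes higher and 5689 lower, against 17712 higher and 3680 lower as reported) and 20.6% after centring on the median. Of the 29 named genes 14 were called lower in PM2.5 lungs, so a call as lower was common among them. With no overlap of the arrays 13.1% of tested probes lay below control. The CS and PM2.5 comparisons use the same 3 control arrays. Leaving out PM2.5 replicate 2 ended both calls, with log2 changes of −0.38 for Mex3c (adjusted p = 0.0613, limma) and −0.38 for Trim2 (adjusted p = 0.0855, limma). Leaving out any 1 control array also ended both, at adjusted p 0.0586 to 0.0631 for Mex3c and 0.0656 to 0.0812 for Trim2, while the CS call on Mex3c held in each of 9 fits that left out an array (adjusted p 0.00176 to 0.0201).

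**Figure D2:**
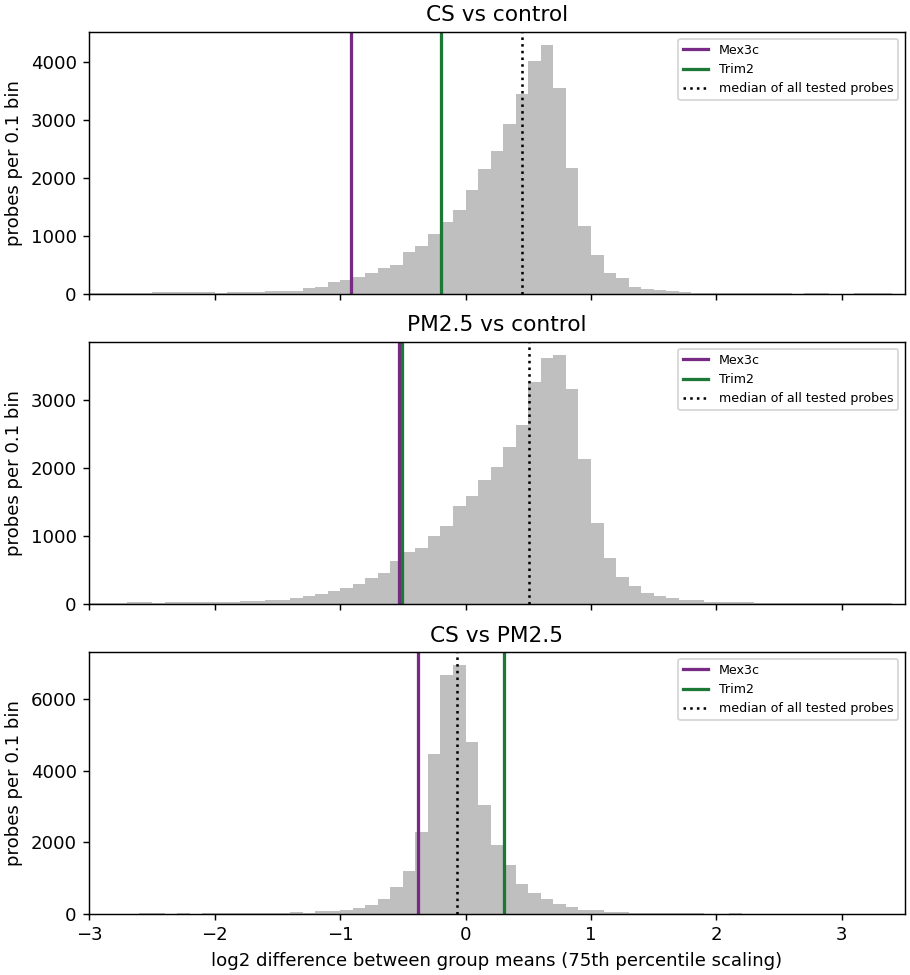
Distribution of the log2 difference between group means over 37643 tested probes (bars, number of probes per bin; 91, 103 and 34 probes lie beyond the axis in the panels from top to bottom), with Mex3c, Trim2 and the median of all probes as lines. Both genes lie left of the median against control, Mex3c farther left in CS, and on opposite sides of the median in CS against PM2.5.

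Between the exposures, neither gene passed: the CS minus PM2.5 value was negative for Mex3c and positive for Trim2. For Mex3c the log2 difference was −0.38 (SE 0.16, 95% interval −0.74 to −0.02, adjusted p = 0.247, limma). PM2.5 replicate 2, at −1.80, lay among the CS arrays, so the groups overlapped. On that array Mex3c lay only 0.26 log2 units above the median of control probes that have no rat target. For Trim2 the log2 difference was 0.31 (SE 0.16, 95% interval −0.06 to 0.68, adjusted p = 0.381, limma), and CS replicate 2, at 1.47, lay within the range of the PM2.5 arrays. All 10 spot positions gave a lower value in CS for Mex3c (−0.49 to −0.31) and a higher one for Trim2 (0.23 to 0.39), which are repeats within the same arrays and not replicates. In this comparison 5.88% of all tested probes were called.

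CS replicates 2 and 3 and PM2.5 replicates 1 and 2 had the same scan time, read here as a shared slide. This allows the exposures to be compared within that slide. There the CS minus PM2.5 difference was −0.41 for Mex3c and 0.23 for Trim2, with means of −1.89 and −1.48 for Mex3c and 1.66 and 1.43 for Trim2 over 2 CS and 2 PM2.5 arrays. With these 4 arrays alone the adjusted p was 0.337 for Mex3c and 0.568 for Trim2 (limma).

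The 2 probes were then compared within each array, because the log2 signal of one minus that of the other does not depend on a scaling factor of the array. The size of this value depends on the probes, and only its difference between arrays is used. That difference is not free of background, above which Mex3c had less margin than Trim2. The value was −3.76, −3.46 and −3.65 on the CS arrays, −2.84, −2.98 and −2.96 on the PM2.5 arrays and −2.94, −2.90 and −2.87 on the control arrays. In these signals the CS arrays lay apart from all others, and the PM2.5 and control arrays overlapped. The CS minus control difference was −0.72 log2 units and the CS minus PM2.5 difference −0.69. Each had an exact permutation p of 0.1, two-sided, the smallest that 3 arrays against 3 can give (0.15 after adjustment over the 3 comparisons). Between PM2.5 and control the difference was −0.02 (exact permutation p = 0.7). After normexp background correction these differences were −0.36 for CS against control, 0.22 for PM2.5 against control and −0.58 for CS against PM2.5. The authors' deposited values have nearly equal sorted columns, so they do not differ from these signals by a scaling factor of the array alone. In them the difference between PM2.5 and control was −0.34 (exact permutation p = 0.1). That between CS and PM2.5 was −0.58 (exact permutation p = 0.2). There PM2.5 replicate 2, at −3.48, lay below CS replicate 2, at −3.39, so the CS arrays no longer lay apart from the PM2.5 arrays.

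**Figure D3:**
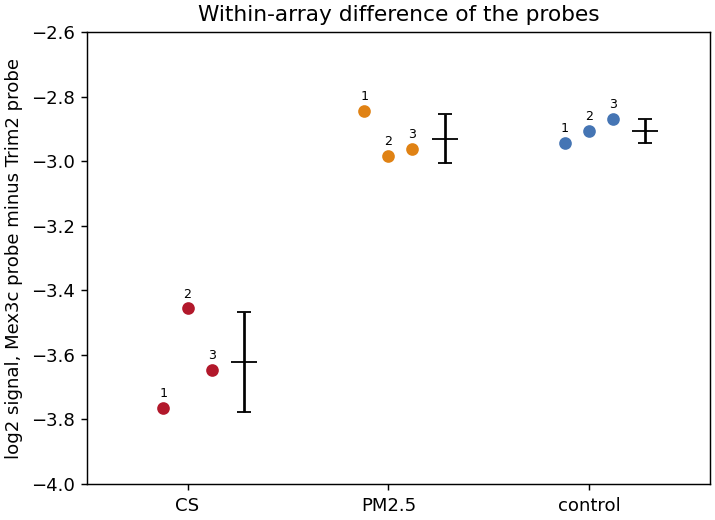
Log2 signal of the Mex3c probe minus that of the Trim2 probe on each array (points, numbered by replicate), with the mean and SD of 3 arrays (bars). CS arrays lie between −3.76 and −3.46, PM2.5 arrays between −2.98 and −2.84 and control arrays between −2.94 and −2.87.

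The spread between arrays differed by group for both genes, as it did over all probes, where the median SD of a probe was 0.22 in CS, 0.27 in PM2.5 and 0.08 in control. For Mex3c the SD of array levels was 0.10 in CS, 0.32 in PM2.5 and 0.02 in control, while the error of an array mean that its own spots give was 0.02 in CS, 0.03 in PM2.5 and 0.03 in control. For Trim2 the SD of array levels was 0.24 in CS, 0.25 in PM2.5 and 0.03 in control, with a spot error of 0.03, 0.03 and 0.02. The exposed arrays thus differed by 4.19 to 10.7 times the spot error, and the control arrays by 0.816 times for Mex3c and 1.22 times for Trim2. The labels call the control arrays biological replicates. Counted as 1 sample, they left no call on either gene, with adjusted p of 0.162 for Mex3c in CS, 0.215 for Mex3c in PM2.5 and 0.233 for Trim2 in PM2.5 (limma).

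The dimness of the Mex3c probe differed between groups as well. The E1A control probes of the array, which have no rat target, had a median level that averaged −2.61 on CS arrays, −2.50 on PM2.5 arrays and −3.31 on control arrays. Mex3c lay above this by 0.50 to 0.93 log2 units on CS arrays, 0.26 to 1.46 on PM2.5 arrays and 2.25 to 2.45 on control arrays. On PM2.5 replicate 2, 3 of the 10 E1A probes were brighter than Mex3c, and on CS replicate 1, 2 were. Trim2 was at least 3.24 log2 units above the E1A median on every array. The part of this background in the Mex3c change was not tested.

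Other settings moved the sizes of the changes, while their signs against control were negative in all 15 alternatives for both genes. In PM2.5 lungs the Mex3c change was −0.82 after quantile normalization (adjusted p = 0.0169, limma) and −0.97 after centring on the median (adjusted p = 0.00393). The Trim2 change there was −0.52 after quantile normalization and −0.95 after centring on the median, so the closeness of the 2 changes did not hold after quantile normalization. With array weights, which did not converge, the changes were nearer to 0, at −0.23 for Mex3c and −0.29 for Trim2 in PM2.5 lungs and −0.07 for Trim2 in CS lungs. With that centring Trim2 also passed in CS lungs, at −0.58 (adjusted p = 0.0403, limma). With normexp background correction the log2 change of Mex3c was −0.54 in CS (adjusted p = 0.0816) and −0.30 in PM2.5 (adjusted p = 0.354), and that of Trim2 in PM2.5 was −0.51 (adjusted p = 0.112), so no call was left (limma). In the authors' deposited log2 values Mex3c averaged 5.92 ± 0.12 in CS, 6.25 ± 0.50 in PM2.5 and 7.09 ± 0.03 in control lungs (SD, n = 3 each), and Trim2 9.62 ± 0.23, 9.38 ± 0.23 and 9.88 ± 0.02 in the same groups. Both genes had the same calls there as in the 75th percentile scaling.

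**Figure D4:**
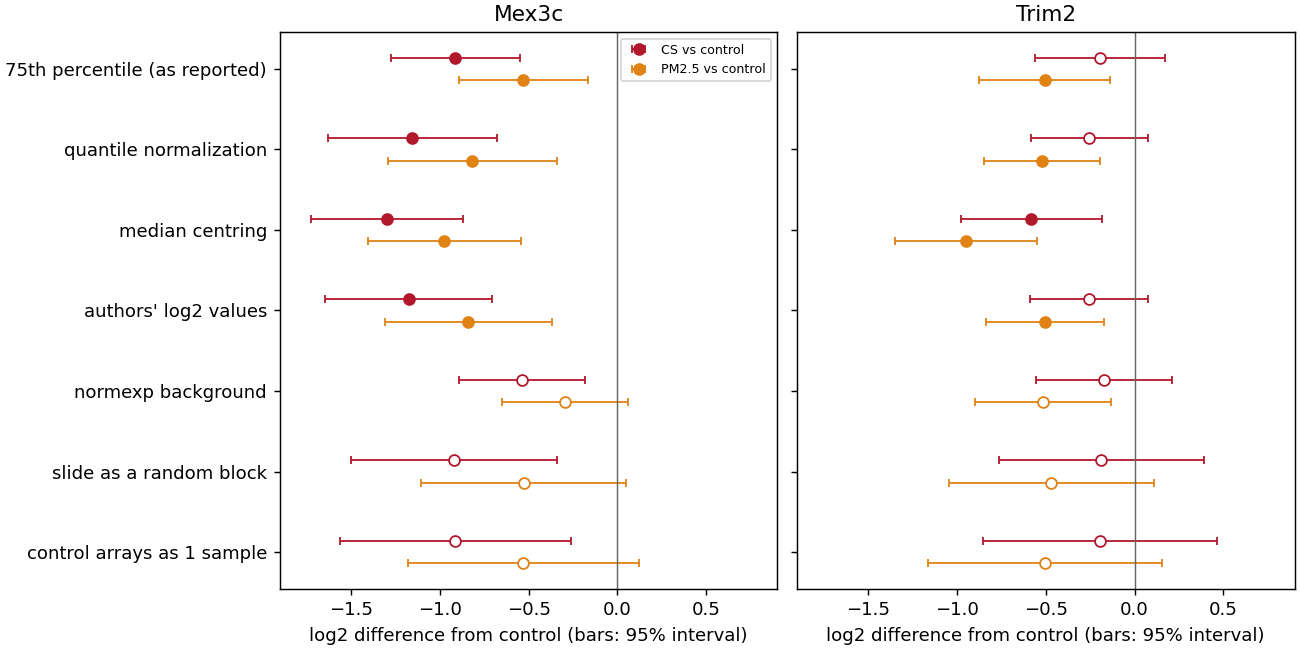
Log2 difference from control of Mex3c and Trim2 in CS and PM2.5 lungs under 7 settings, with 95% intervals; filled points passed at an adjusted p below 0.05 and open points did not. Every point lies below 0, and all are open in the lower 3 settings.

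Other genes of ubiquitin transfer were looked for in 9 lists with 146 entries, covering the MEX3, TRIM and NEDD4 families, other ligases, activating and conjugating enzymes, proteasome subunits and reported targets of MEX3C and TRIM2. Beside the members, Ndfip1 and Ndfip2 were the only ones with a named probe, so no relative, partner or target of either ligase was measured under its name. Ndfip1 and Ndfip2 encode membrane adaptors that recruit and activate NEDD4-family ligases. In CS lungs their log2 changes were −0.46 and −0.52, against −0.20 for Trim2 and −0.91 for Mex3c. In PM2.5 lungs they were −0.39 and −0.51. Of these 4 genes, which include the members, 3 passed as lower in CS and 4 in PM2.5, 0 as higher. Their median log2 change was −0.49 in CS and −0.51 in PM2.5, beside 0.45 and 0.51 over all tested probes. After quantile normalization it was −0.58 and −0.55, beside 0.06 and 0.07. Of the 37643 tested probes 37613 had no gene name here, so the median over all probes hardly reflects the named genes. Among all tested probes 8.42% were called lower in CS and 9.78% in PM2.5, and among the 29 named genes 10 and 14 were.

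The named genes were last ordered by how like their pattern is to that of each member, as the mean absolute difference over the 9 arrays between levels centred on the mean of each gene. For Mex3c the nearest of 28 genes were Pld1, which encodes phospholipase D1 (0.11 log2 units), Ldha, a lactate dehydrogenase subunit gene (0.16), and Pdk3, a pyruvate dehydrogenase kinase gene (0.17), where the median distance was 0.42. Pld1 followed Mex3c on the PM2.5 arrays, with levels of 1.00, 0.02 and 0.61, and lay at 0.45, 0.31 and 0.47 on the CS arrays and 1.20, 1.12 and 1.06 on the control arrays. For Trim2 the nearest were Nat1, which encodes an arylamine N-acetyltransferase (0.10), Ndfip1 (0.14) and Ndfip2 (0.14), where the median distance was 0.30. Nat1 had levels of 1.30, 1.30 and 1.41 on the CS arrays, 1.31, 0.77 and 1.14 on the PM2.5 arrays and 1.69, 1.66 and 1.60 on the control arrays. The distance between Mex3c and Trim2 was 0.31, which placed Trim2 in rank 11 for Mex3c and Mex3c in rank 15 for Trim2. After quantile normalization the nearest 3 of Trim2 were the same genes, while Pdk3, Pld1 and Cdh2, the gene of N-cadherin, were nearest to Mex3c.

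**Figure D5:**
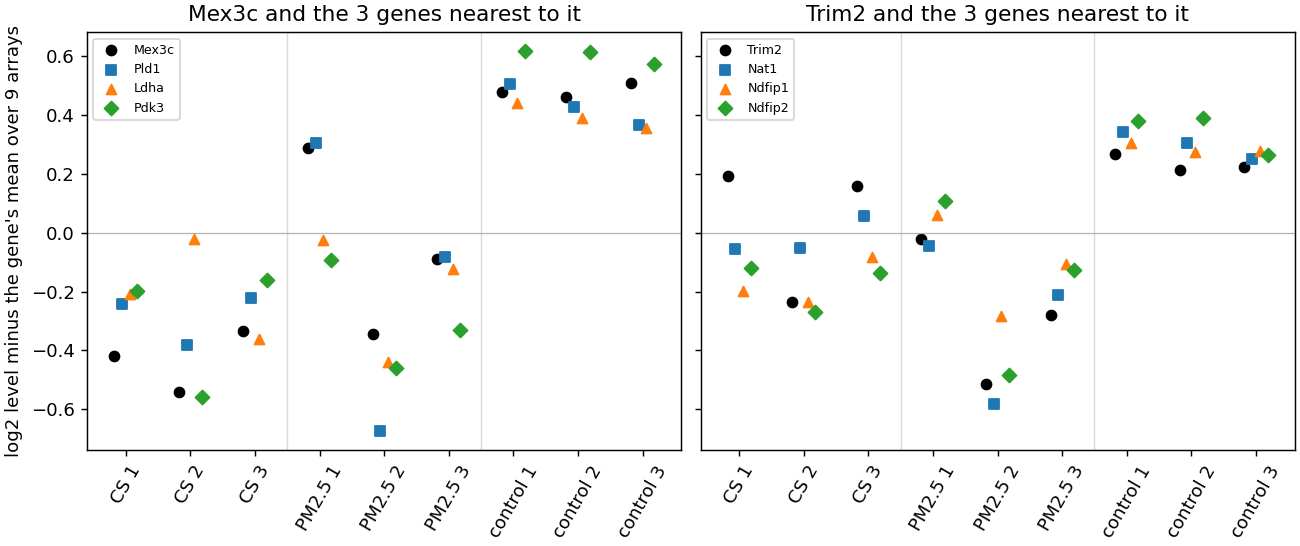
Level of Mex3c and Trim2 and of the 3 named genes nearest to each on the 9 arrays, in log2 units after subtracting the mean of each gene over the arrays. The control arrays lie above 0 for all 8 genes shown across both panels, and PM2.5 replicate 2 is the lowest PM2.5 array for each of them. The genes other than Mex3c and Trim2 were picked by likeness over these same arrays.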

How the data were processed

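Whole-lung RNA of 9 rats was hybridised to custom 1-colour Agilent arrays. Per the file headers, the authors' scanner files hold intensity on a linear scale, read with Agilent Feature Extraction 11.0.1.1, background subtracted and detrended within each array with no scaling across arrays. The deposited files also hold raw signal and local background intensity per spot, and flags of 0 or 1 as other values. The authors' deposited series values are log2 values with nearly equal sorted columns (medians of 6.03), which correlated at 0.998 to 0.999 with log2 signal; how they were normalized is not given in the sources used here.

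Outlier-flagged spots were left out, spots of a probe averaged on the log2 scale, and the 75th percentile of each array over all probes subtracted. Probes were kept where a share of at least 0.5 of the spots were well above background on all 3 arrays of a group; 943 probes were removed as dim and 218 for a missing value. Catalogue probes were named through RefSeq accessions (30 of 50 matched); no genome positions are given, since the array header names another build. Groups were compared by limma (version 3.58.1; R version 4.3.3), using lmFit and eBayes (1 mean per group, two-sided, Benjamini-Hochberg over all tested probes, threshold 0.05). The replicates are those of the labels, and the number of arrays limits the precision. The fit was checked on simulated data.

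The genes with values in the text are the members, list genes with a named probe and the 3 nearest to each member among 28 other genes with a named probe; Cdh2 was named after its values were seen. The members, lists and alternatives were chosen with earlier results of these data known. Alternatives concerned scaling, background correction (offset 50), filters, variance models, blocks, averaging of spots, the samples fitted and left-out arrays.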

Additional observations from a re-analysis of the deposited data

How the results depend on the processing

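Of 15 alternatives per comparison other than left-out arrays, 11 kept the call on Mex3c in CS against control and 11 kept it in PM2.5 against control. The call on Trim2 in PM2.5 against control was kept in 11. No fitted log2 change of either gene turned its sign. The alternatives are not separate checks, since several, such as other filters on dim probes, left the fitted changes as reported. The authors' values also gave changes close to those of quantile normalization. The 3 calls were lost with normexp (−0.54, −0.30 and −0.51 in that order), with a random slide effect (−0.92, −0.53 and −0.47), with control averaged into 1 sample (−0.91, −0.53 and −0.51) and with that average after quantile normalization (−1.15, −0.82 and −0.52). The random slide effect and the averaged control gave larger SEs. With normexp the SE of Mex3c stayed at 0.16, and its changes were nearer to 0. For Trim2 in PM2.5 the unadjusted p was 0.0136 with normexp and 0.0124 as reported (limma). Over all probes 3062 were then called in PM2.5, in place of 21392. Why normexp had these effects was not tested. Trim2 in CS passed only after centring on the median (−0.58). In CS against PM2.5 both genes passed with array weights (−0.58 for Mex3c, 0.21 for Trim2), where the weights did not converge and gave CS replicate 3 a weight of 123 and 0.181 and 0.173 to the other CS arrays. Without 1 array, the change of Mex3c was −0.96 to −0.86 in CS and −0.70 to −0.38 in PM2.5, that of Trim2 −0.27 to −0.06 in CS and −0.63 to −0.38 in PM2.5, and the CS minus PM2.5 difference −0.53 to −0.21 for Mex3c and 0.19 to 0.45 for Trim2. In the within-array difference of the probes, PM2.5 against control had no settled sign: 0.015 with the median of spots, 0.22 with normexp and −0.067 to 0.0028 without 1 array, while CS against control was −0.80 to −0.65 without 1 array.

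The replicate number was also fitted as a block. The numbers did not show pairing of the arrays, since same-numbered deviations correlated at −0.45 to 0.18 and no array correlated best with its own number. With this replicate block the adjusted p was 0.0109 for Mex3c in CS, 0.0329 in PM2.5 and 0.0279 for Trim2 in PM2.5, and no call on either gene changed; the count over all probes for CS against PM2.5 was 1204 in place of 2214. Over the alternatives the count of all probes called was 166 to 33671 for CS (17756 as reported), 1423 to 31126 for PM2.5 (21392) and 383 to 16612 for CS against PM2.5. Without control replicate 1 they were 8007, 13269 and 1347.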
